A study of Mus musculus with 2 samples.

Results

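Secondary (specific) and tertiary (gelatinase) granule genes of neutrophils were followed through 2 single-cell libraries of sorted mouse brain cells. The 10 genes, of 32285 in the files, were Ltf, Camp, Ngp, Lcn2, Chil3, Cd177, Mmp8, Mmp9, Retnlg and Ly6g, taken by gene symbol. They were chosen by their levels in these same libraries, together with the sorting of cells by S100a8, S100a9, Cxcr2 and cycling genes that is used here, so that every level and ratio below is a description and none is a test. Whole brains of 6 male Disc1 WT/WT mice and of 6 male Disc1 LI/LI littermates, all 23 weeks old, were pooled by genotype, which left 1 library per genotype and no replicates. Disc1 LI/LI animals are homozygous for a Disc1 locus impairment that is present in every tissue, and Disc1 WT/WT animals have the wild-type gene. For both pools the dissociation buffers held actinomycin D, an inhibitor of transcription, and CD11b-positive cells of low CD45 were sorted as microglia. The study used the libraries to compare gene expression of microglia between the genotypes.

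Neutrophils fill their granules in a fixed order while they mature in the bone marrow. Primary granules with myeloperoxidase and serine proteases form first, in dividing promyelocytes, secondary granules with lactoferrin and cathelicidin follow, and tertiary granules with gelatinase form last, in cells that have stopped dividing. Transcription of each granule gene is largely switched off once its granule has been filled, and the chemokine receptor Cxcr2, which draws neutrophils out of the marrow, appears late. C/EBP epsilon is the transcription factor that secondary granule genes depend on. Neutrophils are rare in healthy brain tissue and are not the cells the sort was aimed at.

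Each captured transcript carries a random tag, the UMI, and a level here is CPM, a gene's UMIs summed over a set of cells and divided by all UMIs of the same cells, times 1000000. Barcodes needed 200 genes and no more than 10% mitochondrial UMIs, which left 7032 cells in the Disc1 WT/WT library and 7817 in the other, with medians of 4234.5 and 4566 UMIs. Disc1, the targeted gene, had 642 UMIs in the Disc1 WT/WT library and 22 in the Disc1 LI/LI library. The libraries shared 12 barcode sequences, and 1 of them was S100-high in Disc1 WT/WT, against 5 for Disc1 LI/LI. Cells with at least 3% of their UMIs from S100a8 and S100a9, the abundant calcium-binding proteins of neutrophils, are called S100-high. They made up 1.65% of the Disc1 WT/WT library (116 cells, 95% exact interval 1.36% to 1.98%) and 46.3% of the Disc1 LI/LI library (3622 cells, 45.2% to 47.4%). Whether blood was flushed from the vessels before the brains were dissociated is not given in the sources used here. Cells from blood, bone marrow and brain tissue cannot be told apart, and their origin was not tested. The 6 progenitor markers Kit, Cd34, Mpo, Elane, Prtn3 and Ctsg summed to 600 CPM in Disc1 WT/WT and 3662 CPM in Disc1 LI/LI S100-high cells. In Disc1 WT/WT they had 11585 CPM in 2 cycling cells, by the rule given below, and 51.9 CPM in the other 114. The corresponding Disc1 LI/LI values were 13890 CPM in 233 cycling cells and 609 CPM in the other 3389. Of the 10 neutrophil markers, S100a8 and S100a9 set the threshold and carry no information about the cells it chose. The other 8 all had UMIs in both libraries, with a summed level of 5798 CPM in the S100-high cells of Disc1 WT/WT and of 5183 CPM in those of Disc1 LI/LI, against 167 and 238 CPM in the cells with microglia markers below the threshold. Microglia markers moved with the genotype inside these cells. All 12 were detected in each library, with a summed level of 5270 CPM in the Disc1 WT/WT and of 934 CPM in the Disc1 LI/LI S100-high cells, and the ratios between genotypes are therefore also given without the cells that carried at least 3 of them. The labels call the cell type microglia, and S100-high cells are therefore a population within the sort that the label does not describe. Intervals throughout are 95% exact intervals that cover counting error only.

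S100-high cells were placed in bins by their UMIs of Cxcr2 and by cycling, taken as UMIs of at least 3 of the 7 genes Mki67, Top2a, Cenpf, Birc5, Ube2c, Pbk and Cdk1. Non-cycling cells with 0, 1 and at least 2 Cxcr2 UMIs numbered 642, 820 and 1927 in Disc1 LI/LI and 21, 25 and 68 in Disc1 WT/WT. Cycling cells without Cxcr2 numbered 164 in Disc1 LI/LI and 2 in Disc1 WT/WT. Cxcr2 bins also differ in depth, with median UMIs of 5869.5, 3913 and 3615 in the 3 Disc1 LI/LI bins, 5607, 5220 and 4194 in the Disc1 WT/WT bins and 19073.5 in cycling Disc1 LI/LI cells. The 10 genes together held 8.7% of the UMIs of Disc1 WT/WT and 10.3% of the UMIs of Disc1 LI/LI S100-high cells, and up to 20.3% and 23.9% in a single cell.

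Of the 10 genes, 4 lie on chromosome 9 of mm10. Camp (109847379 to 109849617, minus strand), Ngp (110419747 to 110423012, plus strand) and Ltf (111019271 to 111042767, plus strand) follow each other there, with 570129 bases between Camp and Ngp and 596258 between Ngp and Ltf, and Mmp8 (7558456 to 7568485, plus strand) lies far from them. Lcn2 (32384633 to 32388252, minus strand) and Mmp9 (164940780 to 164955850, plus strand) are on chromosome 2. Chil3 (106147554 to 106167564, minus strand) is on chromosome 3, Cd177 (24743983 to 24760311, minus strand) on chromosome 7, Ly6g (75155240 to 75159126, plus strand) on chromosome 15 and Retnlg (48872621 to 48874496, plus strand) on chromosome 16. No annotated gene overlapped any of them.

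Promoter sequence is shown for the 4 genes that were at least 2-fold lower and the 2 that were at least 2-fold higher in cells with more Cxcr2 in both libraries. RefSeq gives the bases before the start of each gene in GRCm38.p6, up to 250, shortened where the gene annotation already begins. In the order shown, they are chr3:106167565-106167814 on the minus strand, chr9:109849618-109849706 on the minus strand, chr9:110419558-110419746 on the plus strand, chr9:111019042-111019270 on the plus strand, chr9:7558179-7558428 on the plus strand and chr16:48872358-48872607 on the plus strand. Capitals mark matches, on either strand, to TTNNGNAA, a pattern of C/EBP factors, and to GAGGAA, a core of PU.1, the factor that directs myeloid development.
Chil3: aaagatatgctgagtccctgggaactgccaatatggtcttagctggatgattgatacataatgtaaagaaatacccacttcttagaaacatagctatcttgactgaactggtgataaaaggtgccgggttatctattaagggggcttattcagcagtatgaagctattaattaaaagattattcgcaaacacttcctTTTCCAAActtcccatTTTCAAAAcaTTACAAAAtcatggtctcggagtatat
Camp: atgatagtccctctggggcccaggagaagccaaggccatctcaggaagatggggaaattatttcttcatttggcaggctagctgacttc
Ngp: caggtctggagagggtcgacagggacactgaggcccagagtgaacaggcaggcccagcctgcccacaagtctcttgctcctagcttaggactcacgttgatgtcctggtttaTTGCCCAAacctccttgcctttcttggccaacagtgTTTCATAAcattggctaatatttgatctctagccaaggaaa
Ltf: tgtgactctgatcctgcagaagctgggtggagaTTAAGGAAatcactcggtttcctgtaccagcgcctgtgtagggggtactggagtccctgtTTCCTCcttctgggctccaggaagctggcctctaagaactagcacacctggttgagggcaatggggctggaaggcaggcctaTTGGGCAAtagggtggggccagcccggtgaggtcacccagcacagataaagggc
Mmp8: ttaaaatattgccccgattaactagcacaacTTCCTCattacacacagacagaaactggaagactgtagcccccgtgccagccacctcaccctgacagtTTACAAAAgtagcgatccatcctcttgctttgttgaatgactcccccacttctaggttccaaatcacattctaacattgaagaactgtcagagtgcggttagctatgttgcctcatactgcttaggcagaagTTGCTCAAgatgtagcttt
Retnlg: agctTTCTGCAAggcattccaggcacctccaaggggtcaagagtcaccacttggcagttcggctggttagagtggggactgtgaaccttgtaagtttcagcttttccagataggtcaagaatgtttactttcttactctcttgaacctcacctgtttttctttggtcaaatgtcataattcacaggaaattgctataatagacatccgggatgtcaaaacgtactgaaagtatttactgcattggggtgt
In the full 250 bases, TTNNGNAA was present in 8 of the 9 members with a promoter entry, Camp being the exception, and in 36.8% of 32851 mouse promoters of the same length. GAGGAA was present in Cd177, Lcn2, Ltf, Ly6g and Mmp8, 5 of the 9, and in 23.3% of all promoters. Lcn2 counts in both, but its window, chr2:32387740-32387989, lies wholly inside the annotated gene, so its matches are not upstream of that gene. Of the 6 genes shown, Chil3, Ngp, Ltf, Mmp8 and Retnlg hold the first pattern and Camp does not, so the letters were found both in genes that were lower and in genes that were higher with Cxcr2. A match is a description of the letters and no evidence of binding.

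Camp, which encodes the antimicrobial peptide precursor cathelicidin, was highest, among non-cycling cells, in those without Cxcr2. In Disc1 LI/LI cells its level was 47406 CPM in cycling cells without Cxcr2, and 39222, 22795 and 11944 in non-cycling cells with 0, 1 and at least 2 Cxcr2 UMIs. The 3 non-cycling Disc1 WT/WT bins had 31859, 22719 and 9427 CPM. Both libraries therefore step downward across the bins, and cells with at least 2 Cxcr2 UMIs were 3.28-fold lower than cells with 0 in Disc1 LI/LI and 3.38-fold lower in Disc1 WT/WT. Ngp, a cystatin-related protein of specific granules, went the same way. Its levels were 43944 in cycling cells and 41740, 26159 and 14766 in the non-cycling bins of Disc1 LI/LI. Disc1 WT/WT bins had 41253, 30962 and 16765 CPM. The difference between the outer bins was 2.83-fold in Disc1 LI/LI and 2.46-fold in Disc1 WT/WT.

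**Figure D1:**
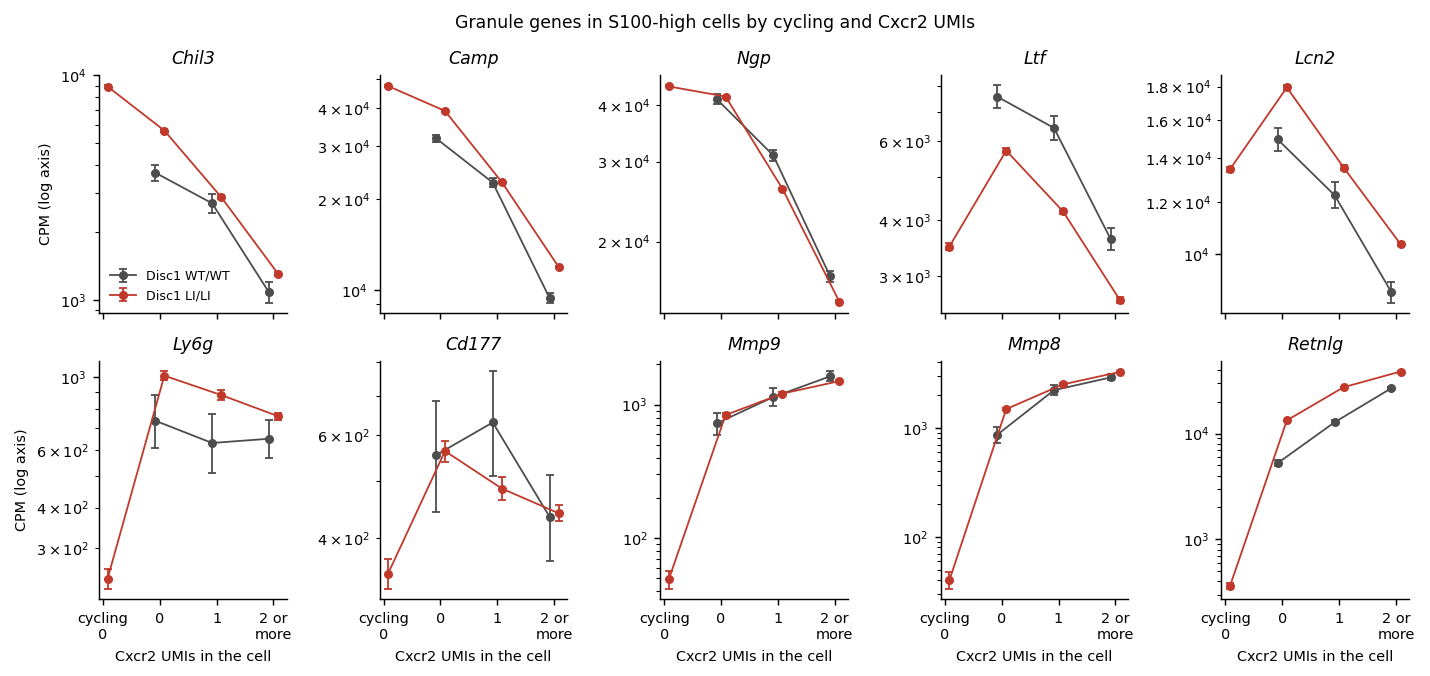
Level of each granule gene in S100-high cells, in CPM on log axes whose ranges differ between panels, against Cxcr2 UMIs per cell and cycling, for Disc1 LI/LI (red) and Disc1 WT/WT (grey). Bars are 95% exact Poisson intervals and the 2 cycling Disc1 WT/WT cells are not drawn. Retnlg goes from 362 in cycling Disc1 LI/LI cells to 38559 with at least 2 Cxcr2 UMIs, while Camp goes from 47406 to 11944.

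Chil3, the secreted chitinase-like protein Ym1, had the steepest descent of the 10. Disc1 LI/LI cells had 8929 CPM when cycling, then 5679, 2870 and 1306 in the non-cycling bins. Disc1 WT/WT bins had 3686, 2692 and 1080. On the log2 scale the outer bins differed by -2.12 (-2.15 to -2.09) in Disc1 LI/LI and by -1.77 (-1.97 to -1.58) in Disc1 WT/WT. Chil4, its close paralog on the same chromosome, was below the mean of 50 CPM needed for a comparison.

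Ltf, the iron-binding lactoferrin, differed from these 3 in the cycling cells. Its level there was 3491 CPM in Disc1 LI/LI, against 5724, 4184 and 2651 in the non-cycling bins, so that the peak was in non-cycling cells without Cxcr2. In Disc1 WT/WT the 3 bins had 7560, 6432 and 3624 CPM. Lcn2, lipocalin 2, which binds the siderophores that bacteria use to take up iron, had the same shape with a flatter descent. Cycling Disc1 LI/LI cells had 13475 CPM and the non-cycling bins 17951, 13554 and 10363. The values in Disc1 WT/WT were 14958, 12301 and 8757. The outer bins differed for Ltf by -1.11 on the log2 scale in Disc1 LI/LI and -1.06 in Disc1 WT/WT, and for Lcn2 by -0.79 and -0.77, so that Ltf passed 2-fold in both libraries and Lcn2 in neither on the full counts. Ltf in Disc1 WT/WT was at -0.91 under TMM scaling.

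Cd177 and Ly6g encode proteins anchored in the neutrophil surface, the first of which binds PECAM1 on endothelium and the second of which is the usual antibody target for mouse neutrophils. Neither reached 2-fold between the outer Cxcr2 bins on the full counts, although thinning to equal depth, described further on, moved each past it in 1 library. Ly6g had 1012, 883 and 761 CPM in the Disc1 LI/LI bins and 737, 630 and 649 in the Disc1 WT/WT bins. Cd177 had 563, 486 and 441 in Disc1 LI/LI and 554, 630 and 435 in Disc1 WT/WT. With 85 to 144 UMIs of Cd177 in a Disc1 WT/WT bin, the log2 ratio of -0.35 there had an interval of -0.75 to 0.05, and that of Ly6g, -0.18, one of -0.52 to 0.16. Both genes were lower in cycling than in non-cycling Disc1 LI/LI cells without Cxcr2, with 242 CPM for Ly6g and 348 for Cd177.

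Mmp9 (gelatinase B), Mmp8 (neutrophil collagenase) and Retnlg (resistin-like gamma, a secreted protein of neutrophils) went the opposite way. Retnlg had 362 CPM in cycling Disc1 LI/LI cells and 13311, 27428 and 38559 in the non-cycling bins. Those of Disc1 WT/WT had 5258, 12779 and 26844. Cells with at least 2 Cxcr2 UMIs had 2.9-fold the Retnlg level of cells with 0 in Disc1 LI/LI and 5.11-fold in Disc1 WT/WT. Mmp8 went from 40.1 in cycling cells to 1482, 2497 and 3245 in Disc1 LI/LI. The Disc1 WT/WT bins had 861, 2208 and 2891 CPM. Mmp9 had 49.1 in cycling cells and 837, 1211 and 1501 in the Disc1 LI/LI bins, against 724, 1141 and 1632 in Disc1 WT/WT. The 3 genes thus rank the bins alike in both libraries, with no bin out of order.

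Set beside all genes, the bins were compared by a plain rule, a level at least 2-fold higher or lower with a mean of at least 50 CPM over both groups. In Disc1 LI/LI, 2 of the 10 members were higher with at least 2 Cxcr2 UMIs (Retnlg, Mmp8) and 4 were lower (Chil3, Camp, Ngp, Ltf). Of the 1695 genes at this level, 8.5% were higher and 2.65% lower, and their median log2 ratio was 0.18 against -0.60 for the members. In Disc1 WT/WT, 3 members were higher (Retnlg, Mmp8, Mmp9) and the same 4 lower. There 11.2% of 2305 genes were higher and 6.81% lower, with medians of 0.04 for these genes and -0.56 for the members. Since the members were chosen on this contrast, nothing is read from these counts. Ranked by the log2 ratio, 8 of the 10 members took the same place in both libraries, and Ly6g and Cd177 changed places. With 21 Disc1 WT/WT cells in the lowest bin, the order there rests on few cells.

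**Figure D2:**
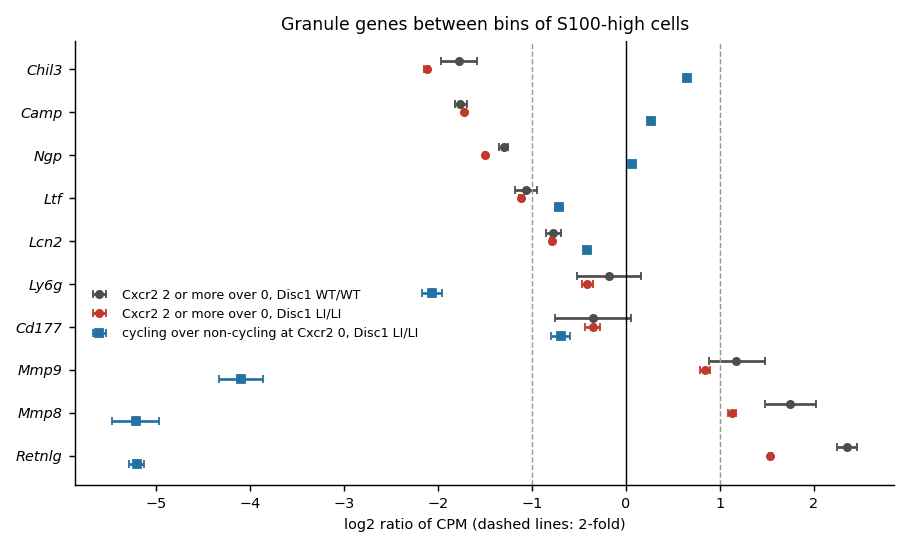
Log2 ratio of each granule gene's level between S100-high cells with at least 2 and with 0 Cxcr2 UMIs in Disc1 WT/WT (grey) and Disc1 LI/LI (red), and between cycling and non-cycling Disc1 LI/LI cells without Cxcr2 (blue squares). Bars are 95% exact binomial intervals of counting error and dashed lines mark 2-fold. Chil3 is lowest and Retnlg highest in both Cxcr2 comparisons, and Mmp8, Retnlg and Mmp9 lie at -5.21, -5.20 and -4.09 in the cycling comparison.

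The Cxcr2 bins rest on 1 or 2 UMIs in a cell, and they were therefore formed again at equal depth. When each cell was thinned to 1000 UMIs and binned on the Cxcr2 UMIs that were left, 1973 Disc1 LI/LI cells had 0 and 498 had at least 2. On the full counts 642 cells had 0, so most of the 1973 had lost their Cxcr2 UMIs in the thinning. The ratios in the newly formed bins therefore compare other sets of cells and do not correct those above. The Disc1 LI/LI log2 ratio of Camp was -3.04, of Ngp -2.86 and of Ltf -2.64. Under the same rule Retnlg had 0.27, Mmp8 0.02 and Mmp9 0.13, so that the 2-fold differences of Retnlg and Mmp8 were lost and those of Camp, Ngp and Ltf were larger. Chil3 stood at -3.15, and Lcn2 and Cd177 passed 2-fold in these bins at -1.15 and -1.17, while Ly6g had -0.75. Thinning was also done with bins kept from the full counts, in the same Disc1 LI/LI cells apart from 3 that were too shallow. It left Mmp8 at 0.57 and Retnlg at 0.88, so at equal depth neither was 2-fold higher in those bins. In Disc1 WT/WT 14 cells had at least 2 Cxcr2 UMIs after thinning, with Retnlg at 0.70, Mmp8 at 0.21, Mmp9 at 0.41, Lcn2 at -1.24 and Camp at -6.30. Ly6g in Disc1 WT/WT was at -1.21 when thinned in the bins from the full counts and at -0.30 in the bins formed after thinning.

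Cycling separated the members more widely than Cxcr2 did. Against non-cycling cells without Cxcr2, cycling Disc1 LI/LI cells had 36.9-fold less Mmp8, 36.8-fold less Retnlg, 17-fold less Mmp9 and 4.18-fold less Ly6g. Cells with microglia markers below the S100 threshold also held UMIs of these genes. No such background was subtracted, and any of it in cycling cells would lower these folds. None of the 10 was higher by 2-fold on the summed counts, where Chil3 was closest, at a log2 ratio of 0.65 (0.63 to 0.68). Cycling cells are much deeper, and with every cell thinned to 1000 UMIs Chil3 passed 2-fold at 1.40, as it did by the mean over cells at 1.33, while Camp had 0.85 and Ngp 0.68 when thinned. Camp and Ngp stood at 0.27 and 0.07, and under scaling by edgeR's TMM method, which moved all ratios by -0.33, they turned to -0.06 and -0.26. Lcn2, at -0.41, turned to 0.09 when the mean over cells was taken. Among the 1776 genes compared, 25.2% were higher and 12.7% lower in cycling cells, and the members' median of -0.70 stood against 0.26 for these genes. Cycling cells that did carry Cxcr2 were fewer, 43 with 1 UMI and 26 with at least 2 in Disc1 LI/LI. Retnlg had 1222 and 6645 CPM in them and Mmp8 117 and 573, so that both stood higher with more Cxcr2 among cycling cells as well, while Camp had 51262 and 28473 CPM, the first above and the second below the 47406 of cycling cells without Cxcr2. In the 2 cycling Disc1 WT/WT cells, Camp had 60006 CPM and Chil3 7260, and Mmp8, Mmp9 and Retnlg had 0 UMIs, which allows a level of up to 94.7 CPM.

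Other granule and maturation genes were listed alongside the members. Primary granule genes, with Mpo (myeloperoxidase), Elane, Prtn3, Ctsg and Ms4a3, were higher in cycling cells in 5 of 5 cases, between 3.01 for Mpo and 4.02 for Ctsg on the log2 scale, and 3 of the 4 that were measured were lower with at least 2 Cxcr2 UMIs in Disc1 LI/LI. Camp, Ngp, Chil3 and Ltf therefore stood between the primary granule genes and Mmp8, Mmp9 and Retnlg, with summed levels that were within 2-fold between cycling and non-cycling cells and dropped by more than 2-fold across Cxcr2. This placing held for Camp and Ngp under each alternative run in Disc1 LI/LI, but not for Chil3, which passed 2-fold between cycling and non-cycling cells when thinned or averaged over cells, nor for Ltf, which was at -1.04 under TMM scaling. Of 14 measured genes in the list of other secondary and tertiary granule genes, 2 were higher with Cxcr2 in Disc1 LI/LI, Slpi (1.11) and Adam8 (1.12), and 1 was lower, Anxa1 (-1.01), with a median of 0.21. In Disc1 WT/WT 4 of 13 were higher and 1 was lower, with Slpi highest at 1.67 and Cybb, the oxidase subunit, lowest at -1.04. Secretory vesicle and surface genes were higher in 3 of 7 cases in Disc1 LI/LI, where Csf3r, the receptor for granulocyte colony-stimulating factor, had 1.33 and Fpr2 0.11, and in 4 of 6 in Disc1 WT/WT. Among the regulators, Cebpe was lower (-1.85 in Disc1 LI/LI, -1.51 in Disc1 WT/WT) and Cebpb higher (1.24 in Disc1 LI/LI). Timp2, an inhibitor of metalloproteinases and the one measured gene of the list of binding partners, was higher by 1.27 and 1.18, and none of the 4 measured paralogs of the members reached 2-fold.

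The share of cells with at least 1 UMI gives the same order less sharply. Without thinning, Camp was found in 100% of cycling and in 80.1%, 70.9% and 67.8% of non-cycling Disc1 LI/LI cells, and Retnlg, in the same order, in 94.5%, 95.3%, 99.4% and 99.6%. UMIs of both genes were also found in cells of another kind. In Disc1 LI/LI cells below the S100 threshold with UMIs of at least 3 of the 12 microglia markers and fewer than 3 monocyte markers, whose median depth was 3818.5 UMIs, Camp was found in 44.7% and Retnlg in 50.5%. In the corresponding Disc1 WT/WT cells, with a median of 4247 UMIs, the shares were 1.59% and 1.95%. S100a8 had 546 CPM in these Disc1 LI/LI cells and 16.7 CPM in these Disc1 WT/WT cells. Whether the UMIs came from the cells themselves or from RNA freed into the suspension was not tested. Thinned to 1000 UMIs a cell, Camp was found in 92.7% of cycling and in 73.1%, 60.4% and 51.1% of non-cycling Disc1 LI/LI cells, and Mmp8 in 3.66%, 60.1%, 80.3% and 87.2%. The thinned shares in Disc1 LI/LI microglia-marker cells were 13.3% for Camp and 1.38% for Mmp8. Retnlg was found in 22% of the thinned cycling cells, not far from its 16.8% in microglia-marker cells, whereas 79.2% to 98.8% of the non-cycling bins held it.

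Levels summed over a bin hide a wide spread between its cells. In Disc1 LI/LI the median cell had 4293 CPM of Ltf when cycling and 4922, 181 and 0 in the non-cycling bins, and single cells of the last bin reached 13329 CPM. Camp had medians of 60147, 27414, 1504 and 516 CPM in the same order, with up to 82542 CPM in a cell with at least 2 Cxcr2 UMIs. The summed levels of Camp and Ltf in the upper bin, 11944 and 2651 CPM, were thus far above those of its median cell. Retnlg ran the other way, with medians of 168, 11255, 34046 and 42351 CPM and up to 7897 CPM in a cycling cell. The Disc1 WT/WT medians of Retnlg were 3562, 17925 and 24625 CPM, and those of Camp 31933, 9583 and 0. Lcn2 and Mmp9 were more even, with Disc1 LI/LI medians of 13022, 8223 and 6843 CPM for Lcn2 and of 956, 1172 and 1423 for Mmp9 in the non-cycling bins.

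Single cells were then sorted by the balance of 2 sets of 3 members, chosen after their values were seen, namely Camp, Ngp and Chil3 against Mmp8, Mmp9 and Retnlg. The first set had more UMIs than the second in 99.4% of cycling Disc1 LI/LI cells without Cxcr2 (95% interval 96.6 to 100). In the non-cycling bins this share was 58.1% (54.2 to 61.9), 31.2% (28.1 to 34.5) and 16.2% (14.6 to 17.9). In Disc1 WT/WT it was 57.1% (34 to 78.2), 48% (27.8 to 68.7) and 19.1% (10.6 to 30.5). The share was thus lower from bin to bin in both libraries, with wide and overlapping intervals in Disc1 WT/WT. Cells without Cxcr2 were spread over both sides, with the 10th and 90th percentiles of the log2 balance at -5.67 and 7.89 in Disc1 LI/LI. Transcripts of both sets, at least 10 UMIs of each, were present together in 47.4% of Disc1 LI/LI and 44.8% of Disc1 WT/WT S100-high cells.

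**Figure D3:**
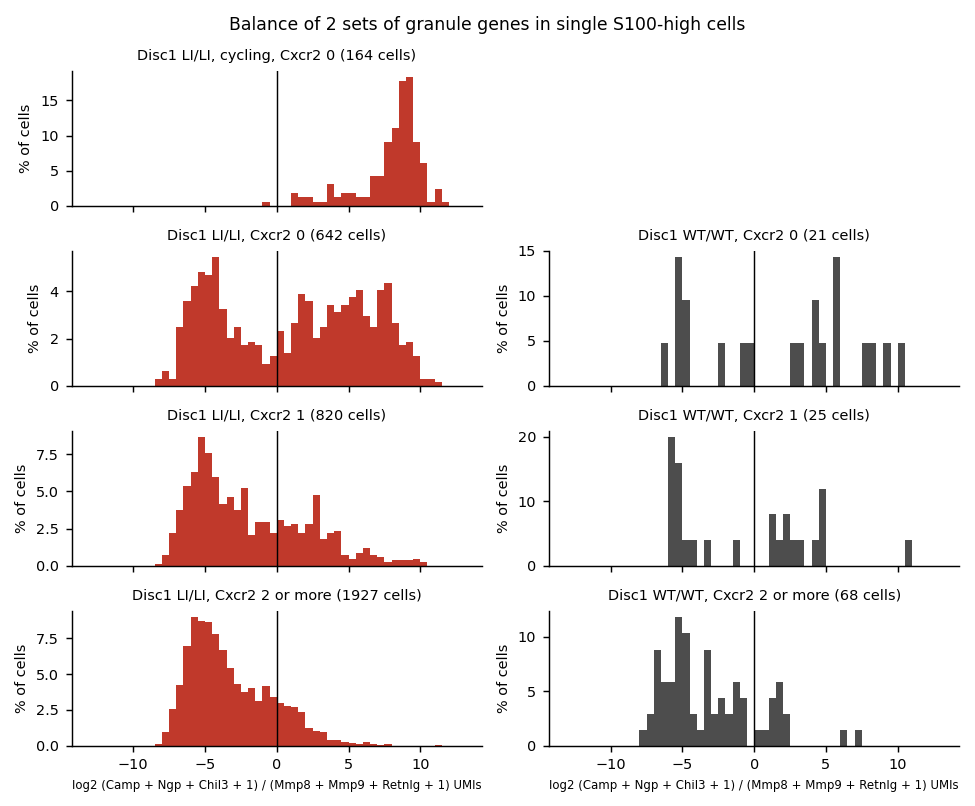
Percent of S100-high cells against the log2 balance of Camp, Ngp and Chil3 UMIs over Mmp8, Mmp9 and Retnlg UMIs, each sum with 1 added, by Cxcr2 UMIs and cycling, in Disc1 LI/LI (red) and Disc1 WT/WT (grey). The bulk of the cells lies right of 0 when cycling and moves to the left with more Cxcr2, where 16.2% of Disc1 LI/LI and 19.1% of Disc1 WT/WT cells have more UMIs of the first set.

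Across non-cycling S100-high cells thinned to 1000 UMIs, log2 UMIs of Camp correlated with those of Ngp (Pearson r 0.93 over 3385 Disc1 LI/LI cells, 0.94 over 113 Disc1 WT/WT cells) and of Ltf (0.90 and 0.93). Retnlg ran against Chil3 (-0.63 and -0.65) and against Camp (-0.51 and -0.55) and with Mmp8 (0.56 and 0.49). Cd177 and Ly6g went more weakly with the Camp group, with 0.38 for both genes against Ngp in Disc1 LI/LI and 0.38 and 0.48 in Disc1 WT/WT, and were near 0 with Retnlg, between -0.09 and -0.04. With each other they had 0.16 in Disc1 LI/LI and 0.21 in Disc1 WT/WT. Cells of one library share that library, so these values are descriptions.

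Between genotypes, the levels of the members in S100-high cells were within 2-fold. None of the 10 passed it on the library totals. Of 2039 genes, 2.35% were at least 2-fold higher in Disc1 LI/LI and 11.1% at least 2-fold lower. With 10 members, nothing about them is read from this count. Chil3 was furthest apart, with 2337 CPM in Disc1 WT/WT against 4043 CPM for Disc1 LI/LI (log2 ratio 0.79, 0.72 to 0.86). Camp followed with 19987 and 27014 (0.43) and Retnlg with 17430 and 23078 (0.40). Ltf was on the other side, with 5126 and 3670 (-0.48, -0.53 to -0.43). Lcn2 stood at 0.24, Ly6g at 0.14, Ngp at 0.08, Mmp8 at -0.06, Cd177 at -0.17 and Mmp9 at -0.31. The direction of several depends on the scaling. The median of the 2039 genes was -0.26, and TMM scaling added 0.54 to every ratio, which put Chil3 past 2-fold at 1.33 and turned Ltf (0.06), Cd177 (0.37), Mmp8 (0.48) and Mmp9 (0.23) to the other side. Ngp changed sign in 4 of the 10 settings and Ly6g in 1. Camp, Lcn2, Chil3 and Retnlg kept their direction under each of the 10 settings tried. Without the S100-high cells that carried at least 3 microglia markers, which left 82 cells of Disc1 WT/WT beside 3284 of Disc1 LI/LI, Chil3 stood at 0.71, Camp at 0.35, Retnlg at 0.08, Mmp8 at -0.34, Mmp9 at -0.57 and Ltf at -0.65. In non-cycling cells alone Chil3 was at 0.41 and Camp at 0.25. Beside them, the primary granule genes were higher in Disc1 LI/LI S100-high cells in 5 of 5 cases, with a median of 2.86, and of the 14 other secondary and tertiary granule genes 2 were lower, Olfm4 (-1.20) and Itgam (-1.07), before the 0.54 of TMM scaling is added. Cycling cells were 233 of the 3622 Disc1 LI/LI and 2 of the 116 Disc1 WT/WT S100-high cells. In the non-cycling S100-high cells the 6 progenitor markers, Mpo, Elane, Prtn3 and Ctsg among them, still differed. They summed to 51.9 CPM in Disc1 WT/WT and 609 CPM in Disc1 LI/LI. How much of the primary granule ratios goes with the share of cycling cells was not tested.

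A count that needs no scaling is the share of the members' own UMIs. Ltf made up 5.89% of the members' UMIs in Disc1 WT/WT S100-high cells and 3.56% in those of Disc1 LI/LI, and Ngp 30.6% and 27.2%. Camp made up 23% and 26.2%, Chil3 2.69% and 3.92%, and Retnlg 20% and 22.4%. Lcn2 was at 12.6% in both. In the lowest Cxcr2 bin Retnlg made up 4.89% of these UMIs for Disc1 WT/WT against 10.4% for Disc1 LI/LI.

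Cycling cells and Cxcr2 bins were in different proportions in the libraries, so the genotypes were also compared bin by bin. Retnlg was higher in Disc1 LI/LI in each non-cycling bin, with log2 ratios of 1.34 (1.24 to 1.44), 1.10 and 0.52 (0.49 to 0.55) at 0, 1 and at least 2 Cxcr2 UMIs. Over 5 ways of computing each of the 3 bins its ratio stayed above 0 in 15 of 15 values, from 0.26 to 2.12. Ltf was lower in each, with -0.40, -0.62 and -0.45, and in 12 of 15 values, and the 3 that differed were those under TMM scaling. Lcn2, Ly6g and Mmp8 were higher in each bin and in 14 of 15 values each, and Ngp, Cd177 and Mmp9 changed direction between bins. The ratios of Chil3 were 0.62, 0.09 (-0.05 to 0.24) and 0.27, and those of Camp 0.30, 0.00 and 0.34, so that neither gene differed beyond counting error at 1 Cxcr2 UMI. Each was below 0 in 2 of 15 values, both at 1 Cxcr2 UMI, where Chil3 was at -0.26 and Camp at -0.32 without the cells carrying microglia markers. In the upper bin Retnlg stood at 0.26 and Ltf at -0.66 without those cells. With 1 library per genotype none of these differences can be set against the spread between animals. Nor were the bins formed at equal depth in any of the 5 ways. At 1 Cxcr2 UMI, Cxcr2 itself had 166 CPM in Disc1 WT/WT and 201 CPM in Disc1 LI/LI, and at 2 or more 652 and 748 CPM. The bins were therefore not matched in Cxcr2 level between genotypes.

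**Figure D4:**
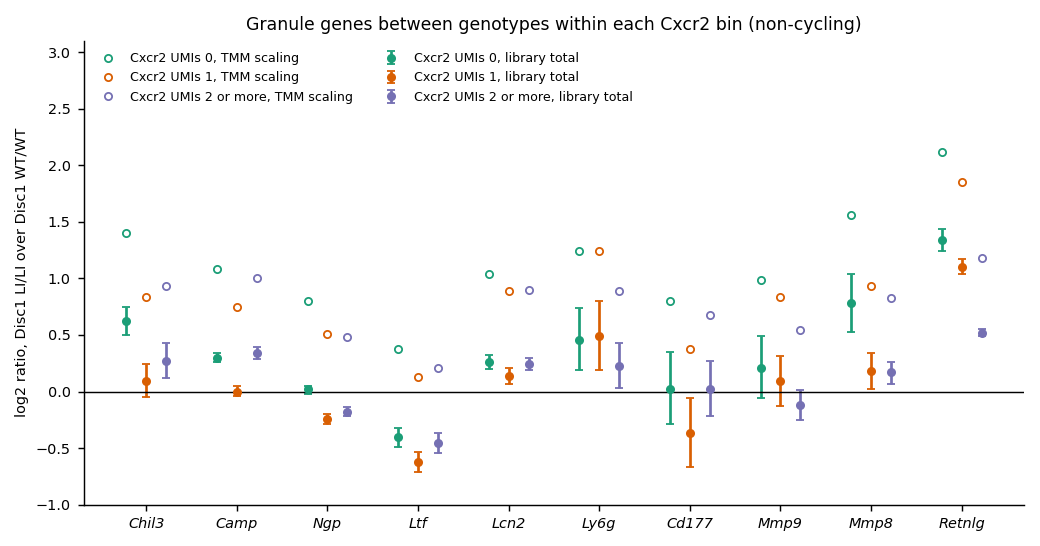
Log2 ratio between genotypes of each granule gene's level, with Disc1 LI/LI as the numerator, in non-cycling S100-high cells with 0 (green), 1 (orange) and at least 2 (purple) Cxcr2 UMIs. Filled points use the total UMIs of the cells, with 95% exact binomial bars for counting error, and open points use TMM scaling. Retnlg is above 0 in every bin by both scalings, from 0.52 to 2.12, and Ltf is below 0 by totals and above 0 by TMM.

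Summed over all cells of a library, each member was higher in Disc1 LI/LI, between 16.3-fold for Ltf and 33.7-fold for Chil3. S100-high cells made up 1.65% of one library and 46.3% of the other, and the levels within all of them were within 2-fold on the library totals. Chil3 was past 2-fold under TMM scaling, at a log2 ratio of 1.33, and Retnlg reached 1.34 in the lowest Cxcr2 bin. How much of the library ratios goes with the share of S100-high cells was not tested. Chil3 had the largest ratio here, with 113489 UMIs in Disc1 LI/LI against 2374 in the Disc1 WT/WT library, and it was also the member with the most UMIs outside S100-high cells.

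Below the S100 threshold, Disc1 LI/LI microglia-marker cells (2264) held every member at 0.441% (Ngp) to 2.63% (Mmp9) of its level in S100-high cells of that library. In Disc1 WT/WT (6650 cells) the same values ran from 0.0116% (Ngp) to 0.095% (Mmp9). Camp, for example, had 147 CPM in the Disc1 LI/LI and 3.36 in the Disc1 WT/WT microglia-marker cells. Free RNA as a source of these UMIs was not tested. Cells with at least 3 of the 6 monocyte markers and fewer than 3 microglia markers, 1100 in Disc1 LI/LI and 20 in Disc1 WT/WT, set 3 members apart. Chil3 had 2130 CPM there in Disc1 LI/LI against 62.9 in microglia-marker cells, and 2346 against 0.824 in Disc1 WT/WT. Cd177 had 77.4 against 5.78 and 133 against 0.285, and Mmp8 130 against 16.5 and 59.6 against 0.412. Both libraries therefore had these 3 genes at higher levels in monocyte-marker than in microglia-marker cells, with 354 UMIs of Chil3, 20 of Cd177 and 9 of Mmp8 behind the Disc1 WT/WT values. Progenitor markers summed to 2634 CPM in monocyte-marker and 2511 CPM in microglia-marker cells of Disc1 LI/LI, against 39.8 and 133 in Disc1 WT/WT. Cells that carried them were not left out of either class.

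For the other members these classes were within 2-fold in Disc1 LI/LI, apart from Mmp9. Monocyte-marker over microglia-marker log2 ratios were -0.20 for Ltf, -0.41 for Camp, -0.28 for Ngp and Retnlg, 0.23 for Lcn2, -0.01 for Ly6g and -1.40 for Mmp9. In the 20 Disc1 WT/WT monocyte-marker cells, Ltf, Camp, Mmp9, Retnlg and Ly6g had 0 UMIs, which allows up to 19.9 CPM, Ngp had 1 UMI and Lcn2 had 8. Of the members' UMIs in monocyte-marker cells, Chil3 made up 90.3% in the first library, Disc1 WT/WT, and 74.4% in the other, against 2.69% and 3.92% in S100-high cells. Chil3 was thus abundant in both S100-high and monocyte-marker cells of these libraries.

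**Figure D5:**
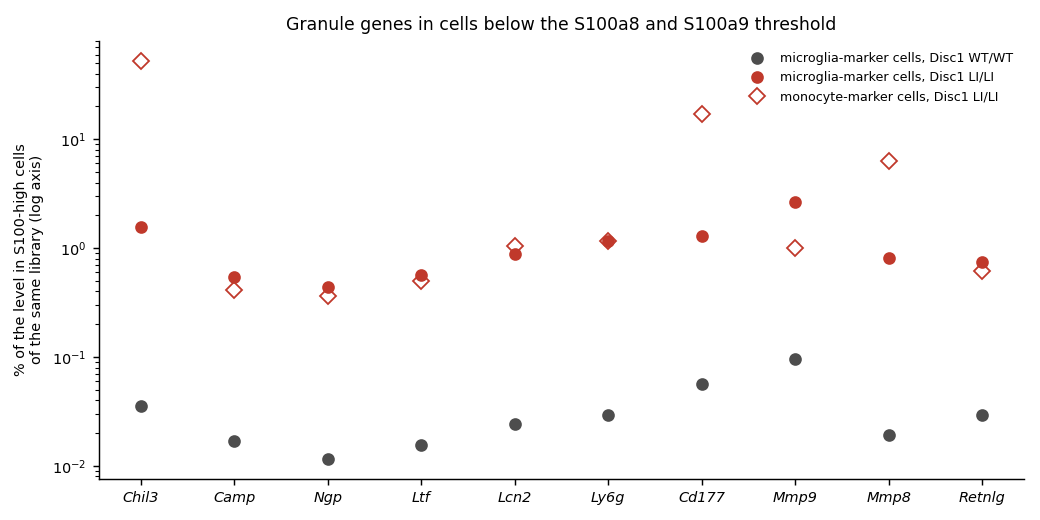
Level of each granule gene in cells below the S100 threshold as a percent of its level in S100-high cells of the same library, on a log axis, for cells with microglia markers in Disc1 WT/WT (grey) and Disc1 LI/LI (red) and for cells with monocyte markers in Disc1 LI/LI (open diamonds). Chil3, Cd177 and Mmp8 reach 52.7%, 17.2% and 6.33% in monocyte-marker cells, and the other members apart from Mmp9 lie within 2-fold of their microglia-marker points.

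Over the 13 sets of at least 30 cells, the gene most like each member by the Pearson correlation of log2 levels was another member in 7 of 10 cases, and 11 of the 30 places among the 3 nearest genes were taken by members, the rest by genes such as S100a8, S100a9, Lrg1, Adam8 and Ceacam10. Camp and Ngp were nearest to each other (r 0.998), Mmp9 and Retnlg likewise (0.991), and Ltf and Lcn2 as well (0.992). Ly6g was nearest to Ltf (0.988). Chil3 was nearest to Ncf4 (0.975), a subunit of the phagocyte oxidase, Cd177 to Prdx5 (0.982), a peroxidase, and Mmp8 to Ostf1 (0.969). These sets share libraries and depth, and 2748 genes were searched. The S100 threshold also formed the sets. S100a8, S100a9 and any gene high in S100-high cells therefore rise and fall with the members by construction. The members were chosen on these same levels, so nothing is read from how many of the nearest genes were members.

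At the edge of the S100 threshold the members were low. The 18 Disc1 LI/LI and 3 Disc1 WT/WT cells with 2% to 3% of UMIs from S100a8 and S100a9 had 0.266% and 0.442% of their UMIs from the 10 genes. Just inside, at 3% to 4%, 26 Disc1 LI/LI cells had 0.307% and 1 Disc1 WT/WT cell had 1.43%.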

How the data were processed

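The authors pooled sorted brain cells by genotype, prepared 3′ droplet libraries and, per the file headers, obtained UMI counts for each gene in each barcode from Cell Ranger 6.1.2, with mm10 as the genome and, per the labels, STAR as aligner. The deposited counts were not normalized. Which of the listed chips served each library is not given in the sources used here. Members and gene lists were chosen with earlier results of these data known. Barcodes under 200 genes or above 10% of mitochondrial UMIs were dropped, counts were summed over cells and divided by the cells' total, and cells were thinned to 1000 UMIs for shares. No test was possible with 1 library per genotype, so the log2 ratios carry 95% Clopper-Pearson intervals and the levels exact Poisson ones, and a count of 0 was bounded by 3 counts. Genes named outside the members were those of each list with a mean of at least 50 CPM and the highest or lowest ratio, and the 3 most similar genes over sets of cells. Ratios were tested on simulated counts. Doublets were not called, and leaving out the 5% of cells with most UMIs was an alternative. Gene positions came from GENCODE vM21, matched by identifier for 32235 of 32285 genes. TMM factors came from edgeR 4.0.16 in R 4.3.3, and the rest was computed in Python 3.11.15 with pandas 2.3.3, scipy 1.17.1, numpy 2.4.6 and matplotlib 3.10.9.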

Additional observations from a re-analysis of the deposited data

Results flagged for a closer look

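Barcodes that the cell filter removed, which enter no comparison above, still held transcripts of the granule genes. In Disc1 LI/LI, 163 UMIs of the 10 members lay in the 17 removed barcodes. They were 0.391% of the UMIs there, against 10.3% in S100-high cells, and hemoglobin made up 66.8%.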

How the results depend on the processing

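The signs of the Cxcr2 ratios were the same in 110 of 110 recomputed values in Disc1 LI/LI and 108 of 108 in Disc1 WT/WT, where Ltf and Chil3 gave no value with bins formed after thinning, having 0 UMIs in 1 bin. The alternatives were other cell filters, other S100 thresholds, TMM scaling, other totals, a mean over cells, thinning, and leaving out cells with microglia markers or with most UMIs. The sizes of the Cxcr2 ratios were less stable than their signs. With Disc1 LI/LI bins formed after thinning, Mmp8 was at 0.02, Mmp9 at 0.13 and Retnlg at 0.27. Retnlg and Mmp8 were then no longer past 2-fold, while Lcn2 (-1.15) and Cd177 (-1.17) were. Between genotypes 85 of 100 values kept their sign, and for cycling 103 of 110. The count of members past 2-fold between genotypes, 0, became 1 under TMM scaling (Chil3) and 1 with 1.5-fold as the limit, and the count for cycling, 4, became 7 with 1.5-fold. No paired analysis was possible because there is 1 library per genotype. The bin by bin genotype alternatives were added after the data were examined. The lowest Cxcr2 bin of Disc1 WT/WT holds 21 cells, and a pool of 6 mice gives no spread between animals.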
